A study of Capra hircus with 2 samples.

Results

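The insulin-like growth factor (IGF) system was examined in longissimus thoracis, one of the long back muscles, of Chinese Xuhuai goats (Capra hircus). The 9 transcripts described here were chosen by accession: the 2 ligands IGF1 and IGF2, the receptors IGF2R and GHR, and the 5 binding proteins IGFBP2, IGFBP3, IGFBP4, IGFBP5 and IGFBP6. They are 9 of the 11663 RefSeq transcript accessions with reads in the series, and all 9 had reads in both libraries. The study compared muscle of goats aged 6 months, represented by 1 library of 9144138 unique reads, with muscle of fetuses at gestation day 90, where gestation lasts 150 days, represented by 1 library of 12811117 unique reads. No treatment or genotype is labelled for either stage. The sampling text of the 6-month library describes embryo collection, so the sampling of that muscle is unstated. The number of animals behind either library was not stated, so no difference below has a replicate check and no p-value is given. The deposited lists hold accessions without gene symbols, and the names used here are those given with the list of cattle RefSeq accessions that defined the group. By that list, goat reads were counted on cattle transcripts for these 9.

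IGF1 and IGF2 are small secreted growth factors related to insulin, and both act mainly through the IGF1 receptor, a tyrosine kinase. IGF2R, the mannose 6-phosphate receptor, binds IGF2 and carries it to lysosomes. GHR is the receptor of growth hormone, which drives IGF1 production in the liver and in tissues such as muscle. The binding proteins hold IGFs in blood and tissue fluid, prolong their life and limit or direct their access to receptors. In mammals IGF2 is known as a growth factor of fetal life, is expressed from the paternal allele in most fetal tissues, and promotes the growth and differentiation of muscle precursor cells.

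The comparison of stages asked which of these transcripts differed between 6-month and fetal muscle. Ligands, IGF2R and all 5 binding proteins were lower at 6 months, whereas GHR was higher. By share of reads, the differences of IGFBP3 and GHR were under 2-fold. Levels are given as RPKM, reads per 1000 bases of transcript and per 1000000 unique reads, which allows for the listed length of each transcript. It does not allow for stretches of that length that took no reads, and these differed between transcripts. Orders and ratios of transcripts within a library therefore carry an error of unknown size beyond counting error. Differences are log2(RPKM + 1) at 6 months minus fetal, and a transcript was called where this was at least 1 log2 unit in size, about 2-fold. By that rule 7 of the 9 were called lower at 6 months, as were 35.1% of the 9705 accessions that reached an RPKM of 1 in one or both libraries. At 2 log2 units, 5 of the 9 were lower at 6 months, against 10.8% of all accessions. None of the 9 (0) was called higher at 6 months, against 9.46% of all accessions. The median difference was -2.36 log2 units over the 9 transcripts and -0.61 over all accessions compared.

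Because RPKM is relative to each library's total, the general shift toward the fetal library bears on all of these counts. Over the 8201 accessions that reached an RPKM of 1 in each library, the median log2 ratio of 6-month to fetal RPKM was -0.58. After centring on that ratio, the same rule still called 7 of the 9 lower, against 22.3% of all accessions, and called GHR higher, against 17.2%. With the other scalings tried, GHR was likewise called higher and the 7 lower. The shares of all accessions called were 10.7% higher and 32.4% lower when RPKM was divided by its sum, 12.2% and 29.4% when the 50 leading accessions were kept out of the totals, and 17.3% and 22.2% with the trimmed mean ratio. The median over the 9 was then -1.79 log2 units, and -0.13 over all accessions compared. In whole muscle, fewer cells of a type and less RNA per cell cannot be told apart.

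**Figure D1:**
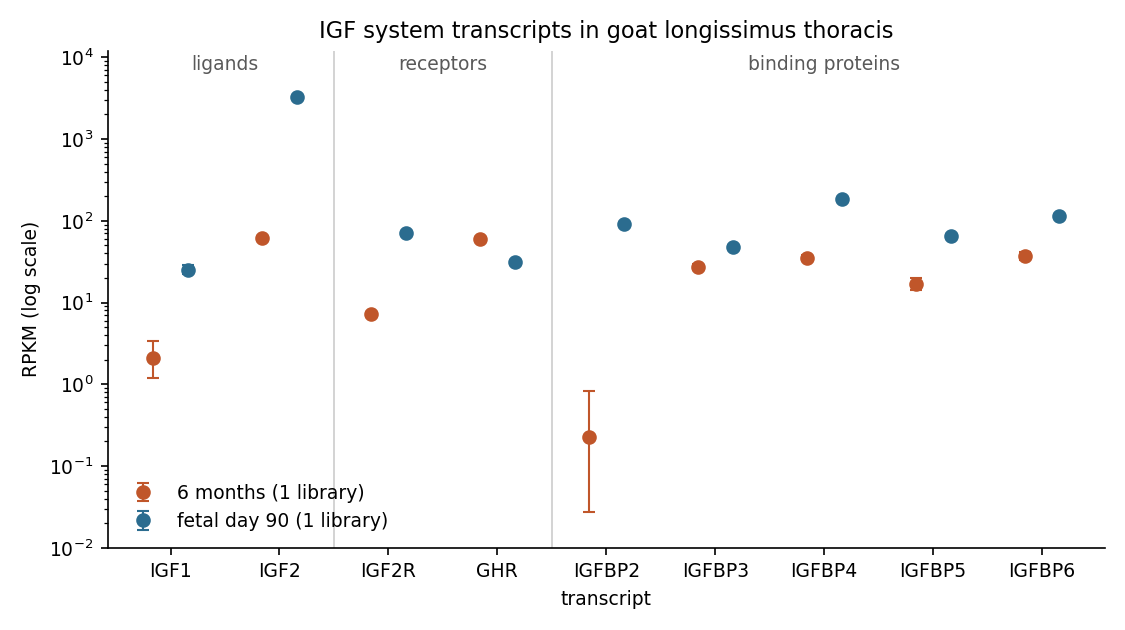
Level of each transcript in the 6-month library (left point of each pair) and in the fetal library (right point), in RPKM on a log axis; bars are exact Poisson 95% intervals, counting error only. IGF2 stands at 61.8 RPKM at 6 months against 3222 RPKM in the fetal library, and GHR is the transcript whose 6-month point lies above its fetal point.

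**Figure D2:**
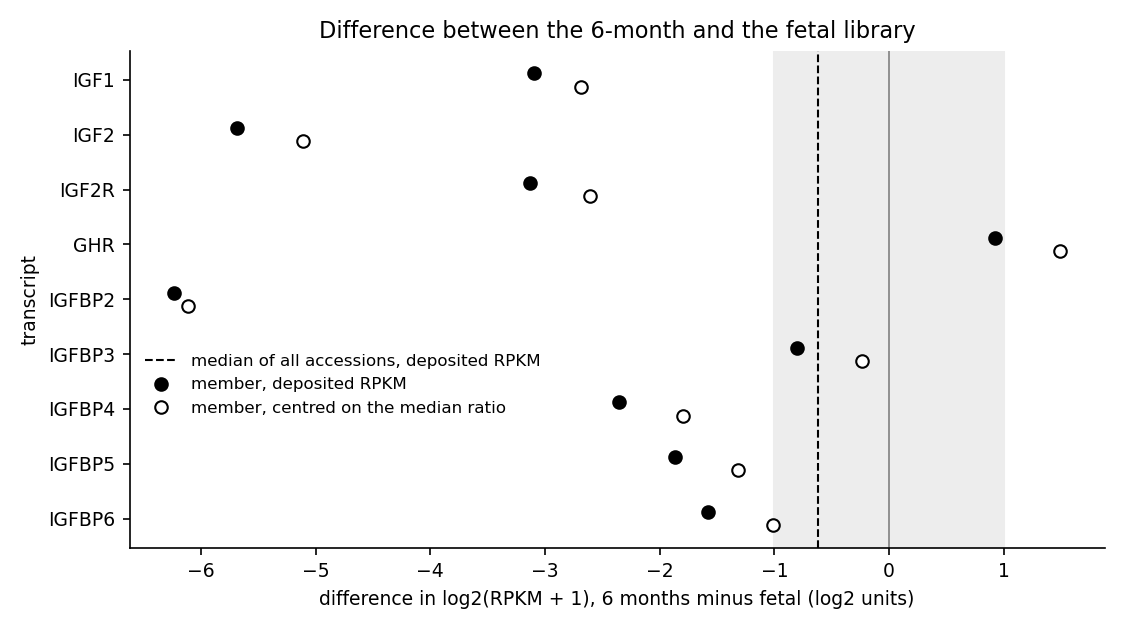
Difference of each transcript in log2(RPKM + 1), 6 months minus fetal, on the deposited RPKM (filled) and after centring on the median ratio (open); the grey band spans differences under 1 log2 unit and the dashed line is the median of all accessions compared. On the deposited RPKM, 7 transcripts lie left of the band, while IGFBP3 and GHR lie inside it; after centring GHR lies to its right.

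Of the ligands, IGF2 was by far the more abundant in both libraries. IGF2 (NM_174087) had 61.8 RPKM at 6 months (2162 reads, 95% counting interval 59.3 to 64.5 RPKM), against 3222 RPKM in the fetal library (157832 reads, 3206 to 3238 RPKM). Its read share was 52.1-fold lower at 6 months (49.9 to 54.4), a difference of -5.68 log2 units. This one transcript took 0.0236% of all reads at 6 months and 1.23% of all fetal reads. By RPKM it ranked 1016 in the 6-month library and 49 in the fetal library. Of the 9705 accessions compared, 14 had a more negative difference.

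IGF1 (NM_001077828) was the less abundant ligand in both libraries and was lower at 6 months. It had 2.08 RPKM at 6 months, resting on 16 reads (1.19 to 3.38 RPKM), against 25.3 RPKM in the fetal library, resting on 273 reads (22.4 to 28.5 RPKM). The read share was 12.2-fold lower at 6 months (7.36 to 21.6), and the difference was -3.10 log2 units. The intervals of the 2 libraries were far apart, but the 6-month value is known only to within the error of 16 reads.

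**Figure D3:**
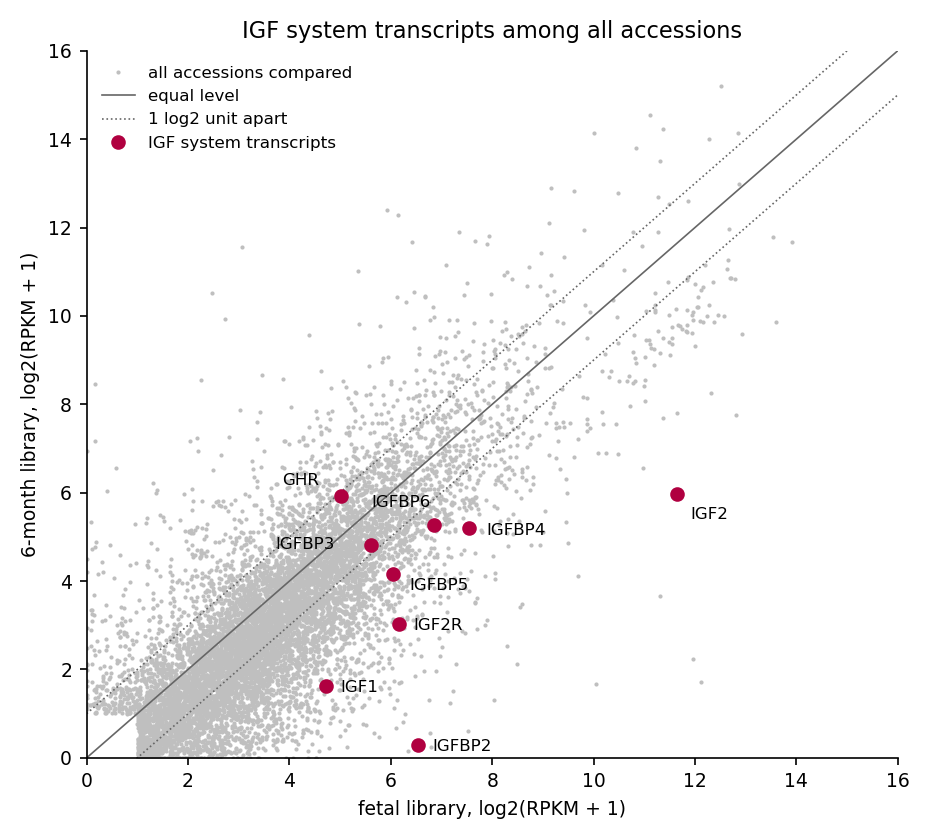
The 9 transcripts (red) among the 9705 accessions compared (grey), with log2(RPKM + 1) in the fetal library on the x axis and in the 6-month library on the y axis; the solid line marks equal levels and the dotted lines 1 log2 unit to either side. IGF2 and IGFBP2 lie at the lower right edge of the cloud, with differences of -5.68 and -6.23 log2 units, and GHR lies just inside the upper dotted line at 0.92.

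The receptors differed in direction. IGF2R (NM_174352), which removes IGF2 from the cell surface, had 7.16 RPKM at 6 months (594 reads), against 70.3 RPKM in the fetal library (8177 reads). Its read share was 9.83-fold lower at 6 months (9.04 to 10.7), and its difference was -3.13 log2 units, close to that of IGF1. GHR (NM_176608), through which growth hormone acts, had 60.2 RPKM at 6 months (1108 reads, 56.7 to 63.8 RPKM), against 31.2 RPKM in the fetal library (806 reads, 29.1 to 33.5 RPKM). At 6 months GHR took a share of reads 1.93 times its fetal share (1.76 to 2.11). The difference of 0.92 log2 units fell short of the call, and was 1.49 after centring on the median ratio. A more positive difference than that of GHR was found, on the deposited RPKM, for 10.4% of all accessions compared.

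All 5 binding proteins had lower levels at 6 months, by a read share from 1.77-fold lower for IGFBP3 to a near loss of reads for IGFBP2. IGFBP2 (NM_174555), a binding protein abundant in fetal serum and fetal tissues of mammals, had 0.23 RPKM at 6 months, against 91.6 RPKM in the fetal library. These values rest on 2 reads at 6 months and 1119 fetal reads, so the ratio of 399 in favour of the fetal library has a wide interval (110 to 3302). Its difference of -6.23 log2 units was the most negative of the 9, and 8 of the accessions compared were lower still. With a pseudocount of 5 RPKM it was -4.21, and IGF2 was then the most negative at -5.59; with 0.1 it was -8.12.

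IGFBP3 (NM_174556), the main carrier of IGFs in adult blood, had 27.1 RPKM at 6 months (603 reads), against 47.9 RPKM in the fetal library (1494 reads). It differed least of the binding proteins, with a read share 1.77-fold lower at 6 months (1.61 to 1.95) and a difference of -0.80 log2 units. This missed the call, and lay close to the median of all accessions compared (-0.61). After centring it was -0.24.

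IGFBP4, IGFBP5 and IGFBP6 were each lower at 6 months by between 3 and 6 times. IGFBP4 (NM_174557), which mostly restrains IGF action until it is cut by the protease PAPPA, had 35.5 RPKM at 6 months (711 reads), against 186 RPKM in the fetal library (5223 reads). Its read share was 5.24-fold lower at 6 months (4.85 to 5.68). IGFBP5 (NM_001105327), which binds extracellular matrix as well as IGFs, had 17.0 RPKM at 6 months (155 reads), against 64.6 RPKM in the fetal library (827 reads), a share 3.81-fold lower (3.20 to 4.55). IGFBP6 (NM_001040495), which prefers IGF2 over IGF1, had 37.4 RPKM at 6 months (356 reads), against 114 RPKM in the fetal library (1519 reads), a share 3.05-fold lower (2.71 to 3.43). Their differences were -2.36, -1.87 and -1.58 log2 units for IGFBP4, IGFBP5 and IGFBP6, and -1.79, -1.32 and -1.02 after centring, so that IGFBP6 then stood barely past the threshold.

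The order of levels also differed. In the 6-month library the order was IGF2, GHR, IGFBP6, IGFBP4, IGFBP3, IGFBP5, IGF2R, IGF1 and IGFBP2. IGF2 and GHR did not differ there beyond counting error (ratio 1.03, 0.96 to 1.11), nor did IGFBP6 and IGFBP4 (ratio 1.05, 0.92 to 1.20). In the fetal library the order was IGF2, IGFBP4, IGFBP6, IGFBP2, IGF2R, IGFBP5, IGFBP3, GHR and IGF1. All fetal neighbours differed beyond counting error, the closest being IGF2R and IGFBP5 with a ratio of 1.09 (1.01 to 1.17). Of the 36 pairs of transcripts, 14 stood in opposite order in the 2 libraries. GHR was in 6 of these pairs and IGFBP2 in 5, and 10 held one or the other. IGFBP2 rests on 2 reads at 6 months, and the reversed pair of IGFBP4 and IGFBP6 was within counting error there. The share of reversed pairs among all accessions was not computed, so the count has no background beside it.

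Ratios of transcripts within a library do not depend on how the libraries are scaled to each other, and so show the balance among the 9 transcripts apart from the general shift. The IGF1 receptor, through which both ligands mainly act, has no value here. IGF2 outnumbered IGF1 29.7 to 1 at 6 months and 127 to 1 in the fetal library. The ratio of IGF1 to IGF2 was thus 4.28-fold higher at 6 months (2.41 to 7.09), although IGF1 itself was lower. IGF2 exceeded its clearing receptor IGF2R 8.64 to 1 at 6 months and 45.8 to 1 in the fetal library, a ratio 5.30-fold lower at 6 months (4.82 to 5.83). The ratio of IGF1 to IGF2R stood at 0.29 at 6 months, against 0.36 in fetal muscle. This was the only one of the 36 pairs whose change between libraries, 1.24-fold, did not exceed counting error (0.74 to 2.21). The interval is wide because IGF1 had 16 reads at 6 months, so it does not show that the ratio held. IGFBP5 to IGFBP6 changed by a like 1.25-fold, with a narrower interval (1.01 to 1.55). How often pairs among all accessions change beyond counting error was not computed. The count over the 36 pairs thus has no background beside it.

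Set against GHR, both ligands were much lower at 6 months. IGF2 stood at 1.03 times GHR at 6 months and at 103 times GHR in the fetal library, a 100.4-fold lower ratio at 6 months (90.7 to 111). IGF1 stood at 0.035 of GHR at 6 months and at 0.81 of it in the fetal library, a ratio 23.5-fold lower (14.0 to 41.9). Both IGF1 and GHR had been near the bottom of the fetal order, whereas at 6 months GHR stood beside IGF2 at the top.

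Per length, the 5 binding protein transcripts exceeded the 2 ligand transcripts at 6 months, and the reverse held in the fetal library. Other binding proteins, such as IGFBP1, have no value here and are not in these sums. The 5 binding proteins summed to 117 RPKM at 6 months, against 504 RPKM in fetal muscle. The 2 ligands summed to 63.9 RPKM at 6 months, against 3247 RPKM in fetal muscle. The binding protein to ligand ratio came to 1.83 at 6 months, against 0.16 in fetal muscle, 11.8-fold higher at 6 months (11.0 to 12.7 by the delta method, counting error only). From reads, not per length, the ligands were ahead in both libraries, with 1827 binding protein against 2178 ligand reads at 6 months (ratio 0.84) and 10182 against 158105 in fetal muscle (ratio 0.064). IGF2 made up 96.7% of the ligand sum at 6 months and 99.2% of the fetal one. Against IGF1 alone, the binding proteins stood at 56.3 to 1 at 6 months and 19.9 to 1 in the fetal library. That ratio was 2.83-fold higher at 6 months (1.70 to 4.70, also by the delta method).

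IGF2 also weighed on the summed level of the 9 transcripts. All 9 transcripts together took 0.0624% of reads at 6 months (Clopper-Pearson 95% interval 0.0608% to 0.0641%), against 1.38% of fetal reads (1.38% to 1.39%). Summed RPKM came to 248 at 6 months, against 3853 for fetal muscle, 15.5-fold lower at 6 months. IGF2 made up 24.9% of that sum at 6 months and 83.6% in the fetal library. Without IGF2, the other 8 summed to 187 RPKM at 6 months and 631 RPKM in the fetal library, 3.38-fold lower at 6 months.

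**Figure D4:**
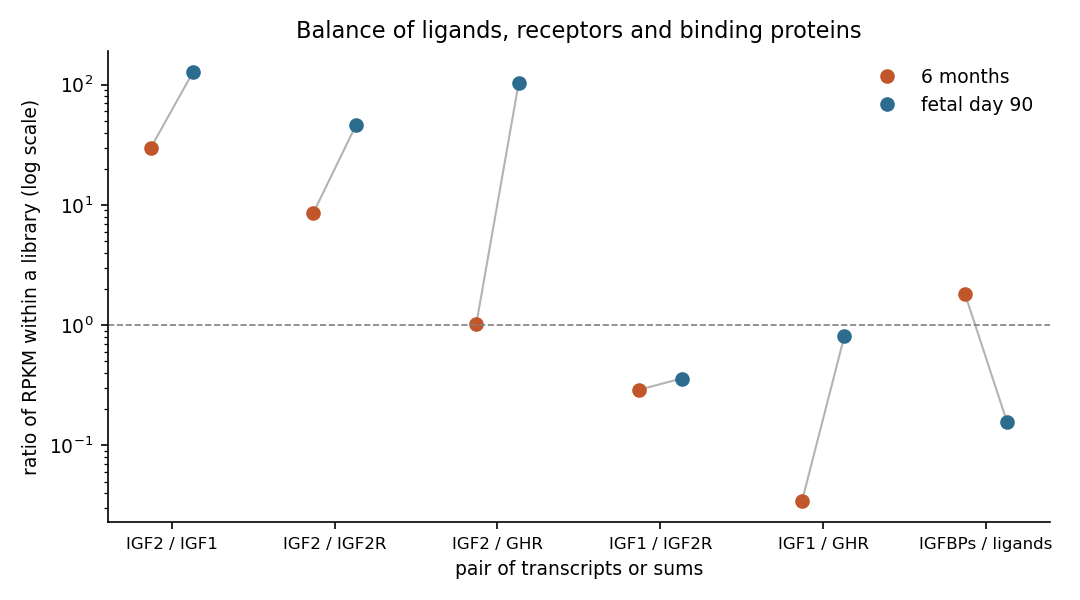
Ratios of RPKM within the 6-month library (left point of each pair) and within the fetal library (right point), on a log axis with a dashed line at a ratio of 1. IGF2 is level with GHR at 6 months and far above it in the fetal library (1.03 at 6 months, 103 fetal). IGF1 to IGF2R is 0.29 at 6 months and 0.36 fetal, a difference within a wide counting error. The binding protein to ligand ratio in RPKM lies above 1 at 6 months and below it in the fetal library (1.83 at 6 months, 0.16 fetal). From reads that ratio is under 1 in both, 0.84 at 6 months and 0.064 fetal.

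The make-up of the 5 binding protein transcripts differed as well. IGFBP2 contributed 0.20% of their summed RPKM at 6 months and 18.2% in the fetal library. IGFBP3 contributed 23.1% at 6 months, against 9.51% of the fetal sum, and IGFBP6 contributed 31.9% at 6 months and 22.6% in the fetal library. IGFBP4 contributed 30.3% at 6 months and 36.9% in the fetal library, where it was the leading binding protein. IGFBP5 held a like share in both, with 14.5% at 6 months and 12.8% in the fetal library. These shares depend on length scaling. From reads, IGFBP2 held 0.11% at 6 months and 10.99% in fetal muscle, IGFBP6 held 19.5% at 6 months and 14.9% in fetal muscle, and IGFBP5 held 8.48% at 6 months and 8.12% in fetal muscle. IGFBP3 then held 33.0% at 6 months and 14.7% in fetal muscle, and IGFBP4 led in both with 38.9% at 6 months and 51.3% in fetal muscle. IGFBP2 apart, the ratios among the binding proteins differed by at most 2.96-fold between libraries, the value for IGFBP3 against IGFBP4 (2.62 to 3.36).

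**Figure D5:**
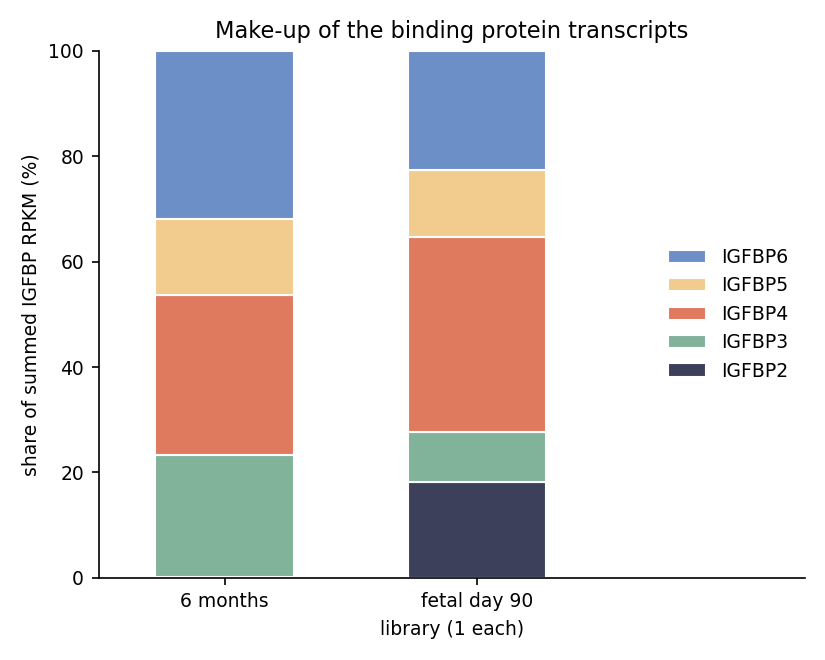
Share of each binding protein in the summed RPKM of the 5, in the 6-month library (left bar) and the fetal library (right bar). The band of IGFBP2 holds 18.2% of the fetal bar and is too thin to see at 6 months (0.20%), while the band of IGFBP3 is wider at 6 months (23.1% against 9.51%).

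The deposited coverage, the percentage of each transcript touched by reads, shows what these counts rest on. A read spanned 90 bases. IGF2, listed at 3824 bases, was covered to 74.7% at 6 months, where reads amounted to 50.9 bases per base of transcript, and to 89.98% in the fetal library at 3715 bases per base. At that fetal depth 383 bases of the listed transcript still had no read. IGFBP3 was covered to 77.9% at 6 months and 79.7% in the fetal library, with 539 and 494 of its 2434 bases unread. GHR was covered to 95.7% at 6 months, at 49.5 bases per base, and to 97.9% in the fetal library. IGF2 was thus covered less than GHR at a like depth at 6 months, which their counting intervals do not take in. Partial coverage was common: among transcripts read to a depth of 20 or more read bases per base, 53.6% at 6 months and 54.8% in the fetal library were covered to under 90%. IGFBP2 was covered to 18.9% at 6 months, the span of its 2 reads, and to 99.6% in the fetal library. Counting by strand was not stated, so reads of transcripts that overlap on the other strand cannot be told apart from those of the named gene.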

How the data were processed

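RNA sequencing libraries of longissimus thoracis were analysed, 1 from goats aged 6 months and 1 from fetuses at gestation day 90. Tissue was frozen in liquid nitrogen and RNA taken up in Trizol, per the labels' protocols; the sampling text of the 6-month library describes embryo collection, which leaves the sampling of that muscle unstated. Per the file headers, the authors deposited the count of unique reads per RefSeq transcript, the transcript length, the percent of it covered and the RPKM. The sources used here do not name the aligner, the build or the transcript set. Counts as deposited sum to the totals in the headers (9144138 at 6 months, 12811117 fetal), so an accession absent from a list had 0 reads; the deposited RPKM were recovered from counts and lengths within 1 part in 1000000. A count of 0 allows up to 3.28e-05% of the 6-month and 2.34e-05% of the fetal reads (3 counts of the total).

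From these values log2(RPKM + 1) differences, exact conditional binomial (Clopper-Pearson) intervals of read ratios, exact conditional intervals of odds ratios of reads and exact Poisson intervals of levels, all at 95%, were computed over the whole table. Intervals of ratios of summed RPKM, also at 95%, were by the delta method and are not exact. All of these values compare 2 libraries. The intervals cover counting error only, leaving out variation between animals and between libraries. PCR duplicates are not separate molecules, so the intervals can be too narrow even for counting error. With 1 library per stage edgeR could not be used and no test was run. The call rule and the intervals of read ratios and odds ratios were tested on simulated Poisson counts. These had no general shift between libraries and no variation between animals, so the test checks the computation and not the calls in these data. Other settings tried were the pseudocount, the minimum RPKM, the call threshold, 4 other scalings between libraries and, for sums, reads in place of RPKM. The 9 transcripts, the lists and the comparisons were chosen with earlier results of these data known; by rule all 9 are named, with the 2 accessions nearest in level to each ligand.

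The accessions are not paired with symbols in the files, and the goat RefSeq gene table of assembly ARS1.2 matched 0 of 11663. That table holds all 9 symbols as goat genes. A list of 28 other pathway genes, IGF1R and IRS1 among them, and the markers of muscle and other cell types were therefore not analysed here, and the labelled tissue was not checked against its markers. No sequence or genome coordinate is given, and gene order in the genome is used only for IGFBP2 and IGFBP5 below. Values were computed in Python 3.11.15 with SciPy 1.17.1, NumPy 2.4.6 and pandas 2.3.3, and drawn with matplotlib 3.10.9.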

Additional observations from a re-analysis of the deposited data

How the results depend on the processing

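Scaling decided the call of GHR and of no other transcript: its difference, 6 months minus fetal, was 1.03 log2 units with RPKM divided by its sum, 1.15 with the 50 leading accessions kept out of the totals, 1.49 with median centring and 1.50 with trimmed mean centring, so that 1 transcript was called higher in each of these. The 7 calls of lower levels held under all 6 settings of pseudocount and scaling and with no minimum RPKM or one of 5. A threshold of 2 log2 units left 5 of them. The median difference of the 9 ranged from -1.79 to -2.39 log2 units. A pseudocount of 1 RPKM put the 6-month to fetal ratio of IGF2 to IGF2R at 0.17 (0.19 without), that of IGF2 to IGF1 at 0.17 (0.23 without) and that of IGF1 to GHR at 0.062 (0.043 without), and the binding protein to ligand ratio was 13.0-fold higher at 6 months from reads and 13.1-fold without IGFBP4. From reads, not per length, the shares in binding protein transcripts at 6 months and fetal became 33.0% and 14.7% for IGFBP3, 38.9% and 51.3% for IGFBP4, 8.48% and 8.12% for IGFBP5, and 19.5% and 14.9% for IGFBP6, with 10.99% for IGFBP2 in the fetal library. No paired analysis was possible because each stage has 1 library. Depth limits IGFBP2 (2 reads) and IGF1 (16 reads) at 6 months.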

Other observations

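IGFBP5 and IGFBP2 are neighbouring protein-coding genes in the goat assembly ARS1.2. Their transcripts differed in how far they lay below the fetal level at 6 months, with a read share 3.81-fold lower for IGFBP5 and 399-fold lower for IGFBP2. The ratio of IGFBP2 to IGFBP5 was 105-fold lower at 6 months (28.4 to 875), an interval that is wide because it rests on 2 reads.

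By distance over log2(RPKM + 1) of the 2 libraries, the accessions nearest to IGF1 were NM_001102180 (2.02 RPKM at 6 months, 26.2 RPKM fetal) and NM_001015591 (1.98 RPKM at 6 months, 24.7 RPKM fetal), and 10 accessions lay within 0.25 log2 units of it. None (0) lay that close to IGF2. Its nearest were NM_001101835 (92.7 RPKM at 6 months, 2020.4 RPKM fetal), at a distance of 0.89 log2 units, and NM_001046549 (116 RPKM at 6 months, 1428 RPKM fetal), at 1.48. These accessions are not annotated in the sources used here, and a likeness over 2 libraries describes levels alone.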
